A study of Bos taurus with 18 samples.

Results

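The 5 bovine names studied here belong to 2 small gene clusters, each of which pairs a miR-193 hairpin with a miR-365 hairpin: bta-miR-193a-5p, bta-miR-193a-3p, bta-miR-193b, bta-miR-365-3p and bta-miR-365-5p (bta, Bos taurus, is left out below), out of 966 miRNA names listed in the library files (824 miRNAs once names of 1 miRNA were merged). They were taken by name, and the set was picked with results of these data known: miR-193a-5p for diet changes that pointed opposite ways in the control and the PHY arm, and miR-365-3p for its difference between the arms on forage. The levels of these names in those contrasts are therefore described without a test.

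The RNA came from papillae, the finger-like folds of the wall of the rumen, biopsied from 9 non-lactating Holstein cows with a rumen cannula. All 9 first ate 100% forage (FD) and later a high-grain diet with 65% concentrate (HG). The labels call 5 libraries on each diet control (CON), and 4 on each diet came from cows given a supplement written only as PHY. The sources used here do not say whether PHY was already fed when the forage biopsies were taken. Forage always came first, so diet and time cannot be told apart, and age and genotype are not given. Each library held 5739789 to 15204018 miRNA reads. Of 7 listed epithelial miRNAs 6 were found by name (miR-203 was not, with or without an arm ending, and lettered forms were not tried). Their summed level was 50194 to 71557 CPM, which are reads scaled to a common library size, across the 18 libraries. It stood beside 102598 to 297884 CPM for 6 of 6 muscle miRNAs and 4836 to 7972 CPM for 7 of 7 leukocyte miRNAs. The 3 of 3 erythroid miRNAs had 6404 to 18351 CPM. The muscle sum averaged 138230 CPM, of which miR-143 alone averaged 133123 CPM. The muscle miRNAs miR-133b and miR-206 averaged only 0.28 and 0.25 CPM. Some markers of epithelium and of each other cell type were thus present. In such bulk samples, a smaller number of cells of one type and less RNA per cell cannot be told apart.

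As background, a miRNA is cut from a hairpin whose 5p and 3p arms can each be loaded into a silencing complex, where bases near the 5′ end (the seed) pair with target mRNAs. miR-193a-3p and the miR-193b entry, the 3p arm of its hairpin, are paralogs with the same seed and are known as brakes on cell growth, with cyclin D1 among the targets described for miR-193b. miR-365-3p has another seed and is known from keratinocytes and from work on cyclin D1 and interleukin-6, and the miR-193b and miR-365 pair is known from the differentiation of brown fat cells.

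The files place miR-193b on chromosome 25, plus strand, 4.7 kb from the miR-365-1 hairpin, and miR-193a on chromosome 19, minus strand, 12.9 kb from the miR-365-2 hairpin (build not given in the sources used here). In the RefSeq gene table (ARS-UCD2.0), MIR193B and MIR365-1 lie between the protein-coding genes MRTFB and PARN, and MIR193A and MIR365-2 between COPRS and RAB11FIP4, none of the 4 inside a protein-coding gene. A further RefSeq entry, MIR193A-2, lies on chromosome 14 inside the protein-coding gene ZNF623, while the files listed both miR-193a arms on chromosome 19 in 18 of 18 libraries. The mature miR-365-3p was listed at the chromosome 19 hairpin in 13 libraries and at the chromosome 25 hairpin in 5. The authors' adjusted count was 33.4% of its raw count over all libraries, and the human entry miR-365a-3p listed 275023 of its 275133 reads, so the adjusted count credits the bovine name with only a part of the reads of this mature miRNA, and the cluster they came from cannot be read from these files. miR-365-5p was listed at the chromosome 25 hairpin in 18 of 18 libraries, with an adjusted count of 50% of its raw count, and the human entry miR-365a-5p listed the same 1056 reads in all. The 3 miR-193 names shared almost no reads, with adjusted counts of 99.8% (miR-193a-3p), 99.9% (miR-193b) and 100% (miR-193a-5p) of the raw counts.

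All 5 names had reads in 18 of 18 libraries and passed the filter on low counts. miR-365-3p was the most abundant, with a mean of 1566 ± 526 CPM (SD, n = 18) and rank 58 of 824. miR-193b averaged 689 ± 132 CPM (rank 87), miR-193a-3p 247 ± 52.8 CPM (rank 128), miR-193a-5p 226 ± 37.5 CPM (rank 132) and miR-365-5p 6.08 ± 1.85 CPM (rank 301). miR-193b was above miR-193a-3p in 18 of 18 libraries, 2.80-fold in the geometric mean (range 1.72 to 4.43). By raw counts miR-365-3p exceeded miR-193b 2.22-fold (1.65 to 3.50-fold, a ratio added after the data were seen), but by the authors' adjusted counts miR-193b was above miR-365-3p in 17 of 18 libraries. The adjusted value counts only the part of the miR-365-3p reads credited to the bovine name, so the 2 orders do not compare the same quantity. The arms of miR-193a did not separate: the 5p arm was above the 3p arm in 6 of 18 libraries. The number of distinct read sequences behind a name was 27 to 52 per library for miR-193a-5p, 26 to 53 for miR-193a-3p, 68 to 142 for miR-193b, 66 to 168 for miR-365-3p and 4 to 18 for miR-365-5p. miR-365-5p rested on only 19 to 122 reads per library, so its values carry the largest counting error. A further arm of the same clusters, listed under the human name miR-193b-5p, had 9 to 47 reads per library and 3.01 ± 1.01 CPM (SD, n = 18).

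**Figure D1:**
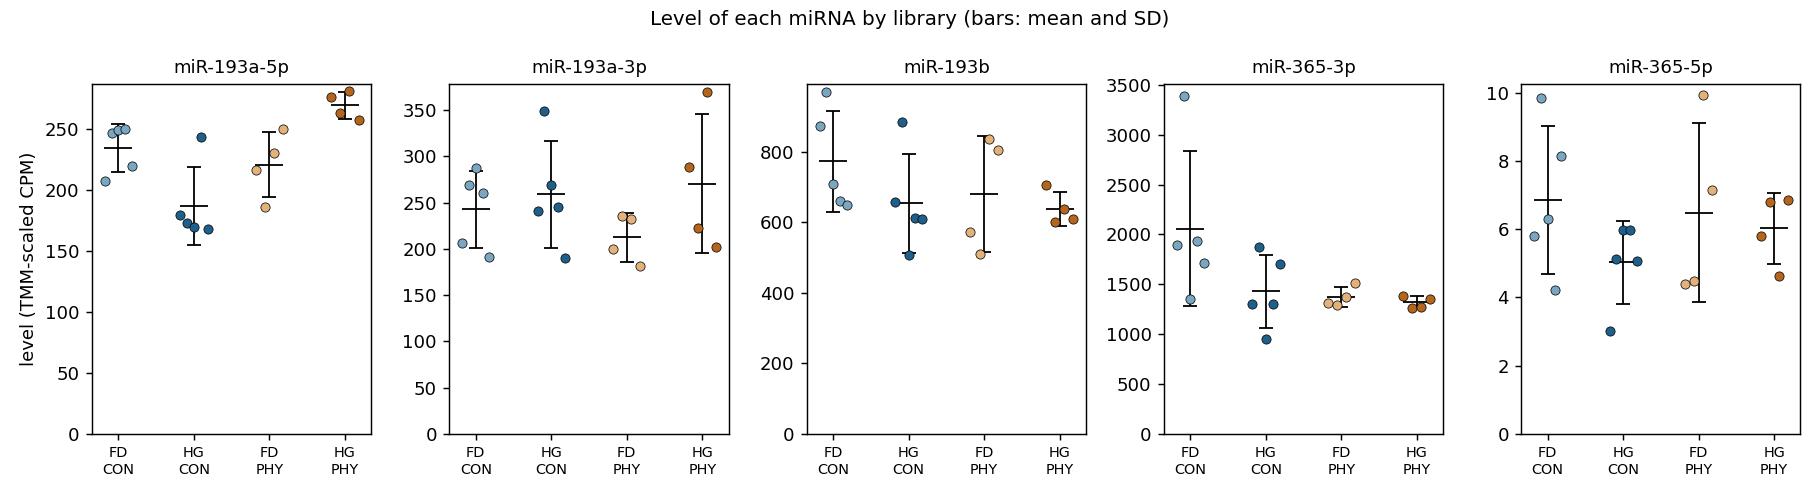
Level of each of the 5 miRNAs (y axis, CPM from raw counts scaled by TMM, starting at 0) in every library of the 4 groups (x axis); horizontal marks are means and bars are SDs. miR-193a-5p lay between 257 and 281 CPM in the 4 HG_PHY libraries, above the 5 HG_CON libraries, while the other 4 miRNAs overlapped between groups, and FD_CON 2 stood at 3391 CPM for miR-365-3p.

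miR-193a-5p, the 5′ arm of the miR-193a hairpin, was the member with opposite diet changes. In control cows it stood on forage at 207, 246, 249, 250 and 219 CPM (FD_CON 1 to 5) and on grain at 179, 173, 169, 244 and 168 CPM (HG_CON 1 to 5). HG_CON 4 remained at the forage level and the other 4 grain libraries lay below every forage control. In PHY cows it stood on forage at 216, 186, 230 and 249.95 CPM (FD_PHY 1 to 4) and on grain at 276, 263, 281 and 257 CPM (HG_PHY 1 to 4), so the diets did not overlap in that arm. The edgeR log2 fold change from forage to grain was -0.33 ± 0.13 (SE) in CON and 0.29 ± 0.14 in PHY, a difference of 0.61 ± 0.19 between the arms. Averaged over the arms, the change was -0.02 ± 0.09 (0.0057 without FD_PHY 4).

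On grain, the PHY cows had 269 ± 11.1 CPM (SD, n = 4) of miR-193a-5p and the control cows 187 ± 32.1 CPM (SD, n = 5), a log2 difference of 0.53 ± 0.13 (0.64 without HG_CON 4), whereas on forage it was -0.09 ± 0.13 (0.0045 without FD_PHY 2). The 4 HG_PHY libraries lay above the 5 HG_CON libraries. Of the 468 miRNAs tested, 2.14% were higher with no overlap between these 2 groups, and 2.99% were higher with no overlap for grain against forage in PHY cows. These libraries chose the miRNA, so nothing is read from either count. The summed marker levels of other cells overlapped between HG_CON and HG_PHY, at 103186 to 133020 and 102598 to 112162 CPM for muscle, 4873 to 7850 and 4836 to 5372 CPM for leukocytes, 7894 to 18351 and 6415 to 16869 CPM for erythroid cells and 11568 to 14188 and 9451 to 12984 CPM for endothelium, and their part in the result was not tested.

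miR-193a-3p comes from the other arm of the same hairpin. In control cows it stood at 206, 269, 287, 261 and 192 CPM on forage and at 241, 349, 269, 245 and 190 CPM on grain. In PHY cows it stood at 199.8, 235, 233 and 181 CPM on forage and at 289, 223, 369 and 202 CPM on grain. The groups overlapped in every comparison, with HG_PHY 3 and HG_CON 2 the highest libraries. Averaged over the arms, the log2 change from forage to grain was 0.22 ± 0.13 (SE; 95% interval -0.06 to 0.50), which did not pass edgeR's test (adjusted p = 0.538), with 6 of 9 grain libraries above the forage mean. The averaged change was 0.14 without HG_PHY 3. On grain, PHY and control cows differed by 0.06 ± 0.19 (interval -0.33 to 0.46, edgeR adjusted p = 0.938), and by -0.088 without HG_PHY 3. The log2 change was 0.09 ± 0.18 in CON (-0.05 without HG_CON 2) and 0.35 ± 0.20 in PHY (0.19 without HG_PHY 3). The difference of PHY from CON in this change was 0.26 ± 0.27, beside 0.61 ± 0.19 for miR-193a-5p. In PHY cows both miRNAs were higher on grain on average (0.35 and 0.29), and whether their patterns differ was not tested.

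The ratio of the arms, which does not depend on the scaling of libraries, showed how far they parted. The 5p arm was 0.973 times the 3p arm in FD_CON (0.866 to 1.14, geometric mean and range), 1.04 times in FD_PHY (0.791 to 1.38) and 1.02 times in HG_PHY (0.760 to 1.27). In HG_CON it was 0.728 times (0.495 to 0.994), with HG_CON 2 the lowest and HG_CON 4 the highest. The ranges of the 4 groups overlapped. Since miR-193a-5p was chosen for its levels in these groups, the ratio was not tested.

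**Figure D2:**
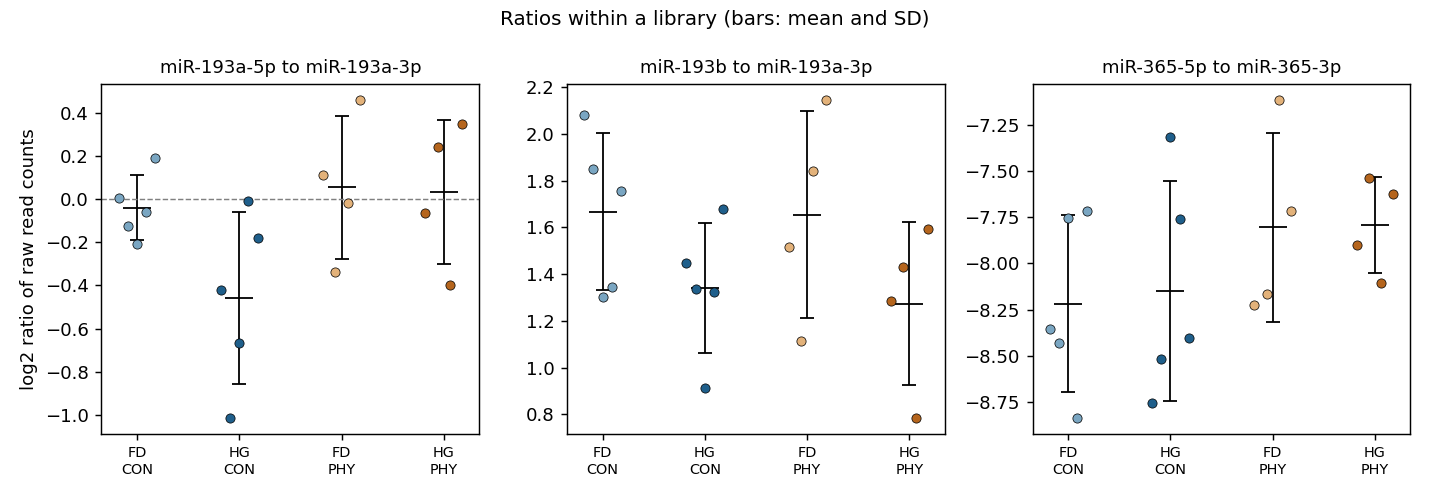
Log2 ratio of raw read counts within each library (y axis) for the arms of miR-193a, for miR-193b over its paralog miR-193a-3p and for the arms of miR-365, in the 4 groups (x axis); marks are means and bars SDs. The miR-193a arm ratio averaged -0.46 in HG_CON and between -0.04 and 0.06 in the other groups, and miR-193b over miR-193a-3p averaged 1.66 on forage and 1.31 on grain.

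miR-193b, the paralog on chromosome 25, stood in control cows at 874, 970, 708, 662 and 649 CPM on forage and at 656, 883, 506, 613 and 609.5 CPM on grain. In PHY cows it stood at 572, 509, 835 and 804 CPM on forage and at 704, 599.8, 636 and 609.9 CPM on grain. All 4 groups overlapped, and all grain libraries but HG_CON 2, 8 of 9, lay under the forage mean of 731 ± 150 CPM (SD, n = 9). The log2 change averaged over the arms was -0.17 ± 0.12 (SE; interval -0.42 to 0.09), which did not pass edgeR's test (adjusted p = 0.617), and -0.11 without FD_PHY 3. It was -0.24 ± 0.16 in CON (-0.38 without HG_CON 2) and -0.09 ± 0.18 in PHY, the latter 0.01 without FD_PHY 3. PHY and control cows on grain differed by -0.04 ± 0.17 (interval -0.40 to 0.33, edgeR adjusted p = 0.970), and this difference was 0.12 without HG_CON 2.

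The ratio of miR-193b to its paralog miR-193a-3p compares the reads of these 2 names within a library. Other names with the same seed were not looked for. The ratio was 3.16 on forage (2.16 to 4.43, geometric mean and range, n = 9) and 2.48 on grain (1.72 to 3.20, n = 9), a log2 difference of -0.35. The ratio exceeded the forage mean in 1 of 9 grain libraries, yet the diets overlapped. A two-sided exact permutation test over 48620 arrangements gave p = 0.0384, and 0.0768 after adjustment over the 2 ratios planned for a test, so the difference did not pass. It passed without FD_PHY 2 (-0.42, exact permutation adjusted p = 0.0251) or HG_CON 5 (-0.40, adjusted p = 0.049), and over all alternatives the adjusted p ran from 0.0251 to 0.152.

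miR-365-3p was the member chosen for its level on forage. Control cows had 1897, 3391, 1357, 1930 and 1710 CPM on forage and 1301, 1877, 956, 1297 and 1708 CPM on grain. PHY cows had 1311, 1288, 1375 and 1508 CPM on forage and 1386, 1264, 1274 and 1350 CPM on grain. FD_CON 2 was far above the rest, and FD_CON 3 lay within the range of the PHY cows, so the arms overlapped on forage. The log2 difference of PHY from CON on forage was -0.59 ± 0.21 (SE), and -0.34 without FD_CON 2. FD_CON 2 also had the highest summed muscle markers, 297884 CPM against 102598 to 166110 CPM in every other library, and the part of muscle in the miR-365-3p level was not tested.

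Between the diets, the log2 change of miR-365-3p averaged over the arms was -0.29 ± 0.15 (SE), and -0.18 without FD_CON 2. The forage mean of 1752 ± 662 CPM (SD, n = 9) was exceeded in 1 of 9 grain libraries. The averaged change is a description, since the forage libraries in it chose this miRNA. The summed muscle markers were at 129258 to 297884 CPM on forage and 102598 to 133020 CPM on grain, and their part in the result was not tested. The change of miR-365-3p came to -0.53 ± 0.20 in CON (-0.31 without FD_CON 2) and -0.06 ± 0.22 in PHY. On grain, PHY and control cows differed by -0.11 ± 0.21 (interval -0.55 to 0.32, edgeR adjusted p = 0.871), and by 0.02 without HG_CON 2.

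miR-365-5p, the far less abundant arm, was at 4.23 to 9.84 CPM in FD_CON, 4.39 to 9.92 CPM in FD_PHY, 3.01 to 5.99 CPM in HG_CON and 4.63 to 6.85 CPM in HG_PHY. All groups overlapped. It made up 0.387% of the miR-365-3p count (0.219% to 0.721%, geometric mean and range, n = 18). Across libraries miR-365-3p was listed at both hairpins, and miR-365-5p at the chromosome 25 hairpin only. The share may thus set reads of 1 hairpin against reads of 2. The log2 change of miR-365-5p from forage to grain averaged over the arms was -0.27 ± 0.22 (SE, interval -0.73 to 0.18, edgeR adjusted p = 0.673). The difference of PHY from CON on grain was 0.25 ± 0.31 (interval -0.39 to 0.90, edgeR adjusted p = 0.813). The first was -0.14 without FD_PHY 3 and the second 0.12 without HG_CON 1. The log2 ratio of the miR-365 arms differed by 0.04 between the diets, a description because its forage values include those that chose miR-365-3p. Leaving out 1 library moved it between -0.06 and 0.16.

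**Figure D3:**
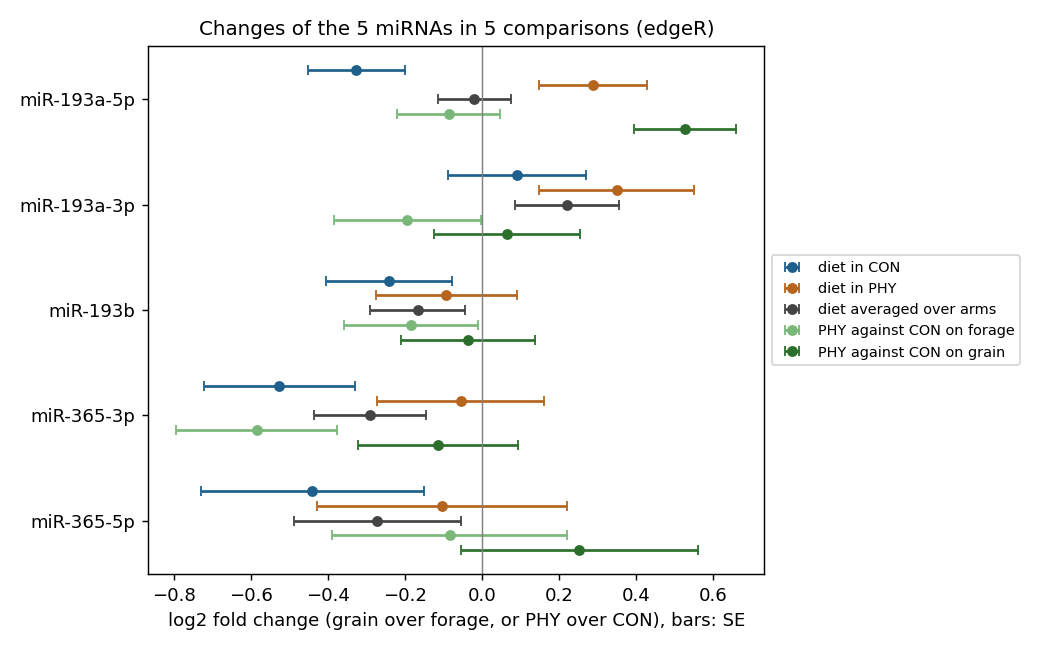
Log2 fold changes (x axis) of the 5 miRNAs (rows) in 5 comparisons from the edgeR fit, grain over forage or PHY over CON; bars are SEs. miR-193a-5p lay at -0.33 in CON and 0.29 in PHY for diet and at 0.53 for PHY against CON on grain, and miR-365-3p at -0.59 for PHY against CON on forage.

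Counted over the set, 4 of 5 members were below 0 for grain against forage averaged over the arms, with a median log2 change of -0.17 beside -0.01 over all 468 miRNAs, of which 50.9% were below 0. This count is a description as well, since miR-193a-5p and miR-365-3p, chosen from these libraries, are in it. miR-193a-5p, at -0.02 ± 0.09 (SE), was above 0 with limma-voom (0.0046), a filter of mean 10 CPM (0.0031) or without FD_PHY 4 (0.0057). Of the 3 members tested (miR-193a-3p, miR-193b and miR-365-5p), 0 passed an adjusted p of 0.05 in edgeR, against 0.214% of all miRNAs, and 0 of 3 had an unadjusted p under 0.05, against 10.7%. For PHY against CON on grain, where miR-365-3p was tested too, 0 of 4 passed, against 0% of all miRNAs, and 0 of 4 had an unadjusted p under 0.05, against 6.84%. DESeq2 (which gave no adjusted p for miR-365-5p in the averaged diet comparison) and limma-voom also called 0 in both comparisons. The library ranges of the diets overlapped for 5 of 5 members, and 0% of all miRNAs did not overlap. On forage, 5 of 5 members had a log2 difference of PHY from CON below 0 (median -0.18, beside -0.04 over all miRNAs, 55.6% of them below 0). Without FD_PHY 2, miR-193a-5p was at 0.0045 and miR-365-5p at 0.081, and miR-365-5p was also above 0 without FD_CON 2 (0.074) or FD_PHY 1 (0.078). In control cows 4 of 5 were below 0 for grain against forage (median -0.33, beside -0.02, 53.8% below 0), and 5 of 5 without HG_CON 2. These last contrasts were used to choose members, share the FD_CON libraries, and are given as counts only.

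The deviation of each library from its group mean is not what chose the members, and it was used to ask whether the members varied together between libraries. Of the 10 pairs, 1 passed: miR-193b and miR-365-3p, which has one of its hairpins beside miR-193b on chromosome 25, deviated together (Pearson r = 0.66, permutation p = 0.00244, adjusted p = 0.0244; Spearman rho = 0.72, adjusted permutation p = 0.0348; n = 18 libraries of 9 cows). Within forage libraries r was 0.58, within grain 0.80, within CON 0.76 and within PHY 0.76. With the 2 libraries farthest from the median of miR-193b left out, HG_CON 2 and FD_CON 2, r was 0.46. Leaving out 1 library kept r between 0.59 and 0.71, but the adjusted permutation p rose to 0.232 without FD_CON 2, 0.0533 without FD_CON 5, 0.0869 without HG_CON 2, 0.0922 without HG_CON 3 and 0.0533 without HG_CON 4. FD_CON 2 also had the highest summed muscle markers, and the part of cell makeup in this correlation was not tested. How often miRNA pairs outside the set reach such an r in their deviations was not examined. Nothing is therefore read from the shared location. Both diets of a cow are among the libraries, so they are not fully independent.

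The pairs of miR-365-3p with the miR-193a arms, its neighbours on chromosome 19, had values near 0 over all 18 libraries but not within each arm. miR-193a-3p and miR-365-3p had r = 0.04 and miR-193a-5p and miR-365-3p had r = 0.04 (permutation p = 0.882 and 0.873). Within CON and PHY, r was 0.11 and -0.33 for miR-193a-3p, and -0.02 and 0.70 for miR-193a-5p. The 2 arms of miR-193a had r = 0.15 (permutation p = 0.559), the 2 arms of miR-365 r = 0.25 (permutation p = 0.401) and the paralogs miR-193b and miR-193a-3p r = 0.23 (permutation p = 0.341). Adjusted over the 10 pairs, the p-values of the 9 pairs that did not pass ran from 0.699 to 0.882, and their r within forage, grain, CON or PHY libraries ran from -0.35 to 0.87. Whether the correlation of miR-193b with miR-365-3p exceeds the others was not tested.

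**Figure D4:**
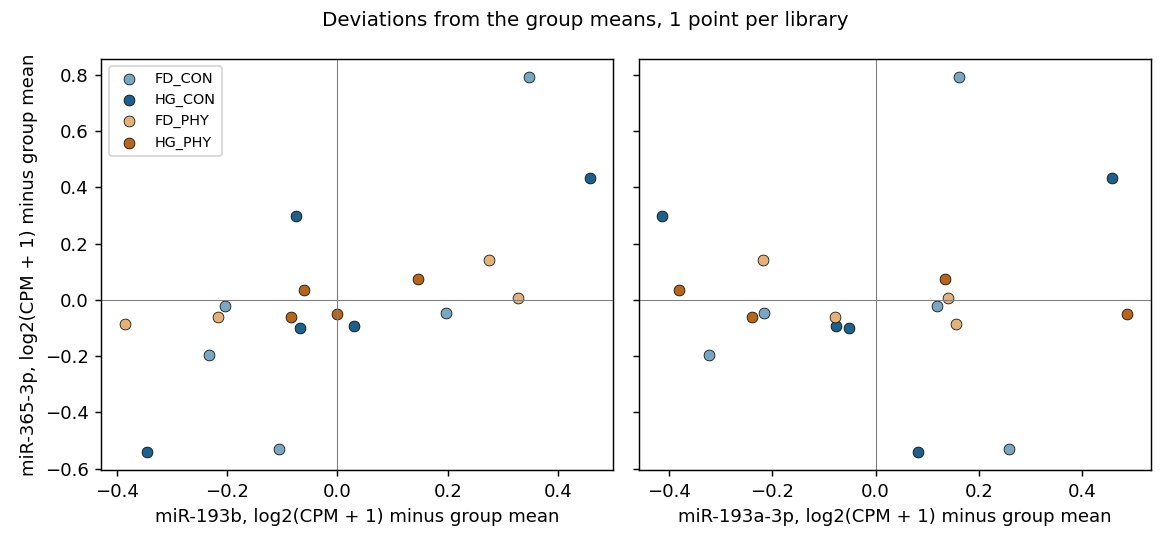
Deviation of each library from its group mean in log2(CPM + 1), miR-365-3p on the y axis against miR-193b (left) and against miR-193a-3p (right); points are the 18 libraries, coloured by group. Libraries high in miR-193b were also high in the main in miR-365-3p (r = 0.66), with FD_CON 2 at the top, while miR-193a-3p gave r = 0.04.

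Among the 271 other miRNAs with a mean of at least 10 CPM, those most like each member over the 18 libraries were found by Pearson's r of log2(CPM + 1), as a description. miR-193a-5p was most like let-7e (r = 0.79), followed by miR-2284y (0.71) and miR-6119-3p (0.61). miR-193a-3p was most like miR-141, an epithelial miRNA of the miR-200 family (0.83), followed by miR-32 (0.65) and miR-16a (0.65). miR-193b was most like miR-328 (0.76), miR-197 (0.69) and miR-455-5p (0.69), the last 2 at 0.60 and 0.57 without FD_CON 2. miR-365-3p was most like miR-30b-5p (0.87), miR-328 (0.80) and miR-218 (0.80), but these values were 0.68, 0.47 and 0.68 without FD_CON 2. The arms of miR-193a had no miRNA in common among their 3 most alike, and miR-193b and miR-365-3p had miR-328 in common. The group differences that chose miR-193a-5p and miR-365-3p are part of these values, so nothing is read from what the members share. The libraries share depth and cell makeup, and the median r over the 271 miRNAs was between -0.01 and 0.09.

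In the list of brown fat and adipocyte miRNAs, the setting in which the miR-193b and miR-365 pair is best known, 16 of 18 were tested, and 11 of the 16 were below 0 on grain averaged over the arms (median log2 change -0.13, beside -0.01 and 50.9% below 0 over all miRNAs). None passed edgeR's test, and 4 had an unadjusted p under 0.05, all below 0, against 6.41% of all miRNAs. miR-143, typical of smooth muscle, had the lowest p (-0.51 ± 0.12 SE, adjusted p = 0.110). In the list of stratified epithelium miRNAs, 9 of 10 were tested and 6 were above 0 (median 0.03, beside -0.01 and 49.1% above 0 over all miRNAs). In CON 6 of the 9 were below 0 (median -0.05, beside -0.02 and 53.8%), and in PHY 8 of the 9 were above 0 (median 0.23, beside 0.01 and 50.6%), a difference between the arms that was not tested. None passed, and miR-125b, in both lists, had the lowest p (-0.43 ± 0.13, edgeR adjusted p = 0.165). The 2 others with an unadjusted edgeR p under 0.05, miR-184 and miR-210, were above 0, against 4.27% of all miRNAs. Of these, miR-184 averaged only 4.16 CPM.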

How the data were processed

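Small RNA of 18 rumen papilla biopsies was sequenced. A NucleoSpin miRNA kit served for extraction and a NETflex Small RNA-Seq kit for the libraries, per the labels' protocols. The tools bcl2fastq 2.20 and DESeq2 appear in the submitters' processing notes, without their role. Aligner, counter and genome build were not given in the sources used here. The deposited files give, per the file headers, a raw read count per mature miRNA name, an expected count that the authors adjusted for multiple mapping, the number of distinct read sequences, and a depth-scaled value (RPM), used here only to find totals. A read that matches several names counts under each. Names listed at positions overlapping by at least 15 nt, or bovine and human names of 1 miRNA with totals within 5%, were merged, which left 824 miRNAs. The 5 members kept their own names, and other miRNAs took the name with the most reads. The deposited table of normalized values was not used. Averaged diet and the miR-365 arm ratio had been planned as tests of miR-365-3p too, but are given without p because their forage values entered its choice. The members, lists and tests were chosen with earlier results of these data known.

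Raw counts were tested with edgeR 4.0.16 (R 4.3.3) by the quasi-likelihood test, TMM scaling and filterByExpr (468 miRNAs), with 1 mean per group over all 18 libraries and Benjamini-Hochberg adjustment at 0.05, two-sided. Libraries of a cow were treated as independent. Labels do not tie numbers to cows across diets, and p-values measure only the spread between these libraries. Levels are TMM-scaled CPM. A 95% interval is the log2 change with its SE times the t quantile at the fit's degrees of freedom. Ratios used raw counts and exact permutation, and correlations of deviations used log2(CPM + 1) and 100000 permutations within groups. Named miRNAs were the members, the 3 most alike for each member of at least 10 CPM, and the lowest p of each list. On simulated counts for the averaged diet comparison of 468 miRNAs, the fit called 91.8% of miRNAs changed by 1 on the log2 scale and 3.05% of those not changed. These shares are over 98 miRNAs changed by 1 and 262 not changed, with 97 more changed by 2. In the data only 0.214% were called, which makes the adjustment stricter. Changes as small as those of the members were not simulated, so the power for them is not known. Alternatives were DESeq2 1.42.0, limma-voom (limma 3.58.1), other filters and scalings, the adjusted counts (rounded), unmerged names, each library left out, and a replicate block.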

Additional observations from a re-analysis of the deposited data

Results flagged for a closer look

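In each group of 4 or 5 libraries, the highest and lowest values of the 5 members and of 4 ratios between them were compared with the rest by Dixon's criterion, 36 groups in all, and chance alone sets a value apart in about 1 in 20. A value stood apart in 2 groups. HG_CON 4 had 243.5 CPM of miR-193a-5p, above the other 4 grain controls at 168 to 179 CPM, and without it the log2 change in control cows was -0.44. FD_CON 2 had 3391 CPM of miR-365-3p, above the other 4 forage controls at 1357 to 1930 CPM.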

How the results depend on the processing

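Of the 3 members tested for diet averaged over the arms, 0 passed in 27 alternatives (lowest adjusted p = 0.280, with DESeq2 for miR-193a-3p), and of the 4 tested for PHY against CON on grain 0 passed in 26 (lowest 0.739). Diet changes averaged over the arms kept their sign for these 4. On grain, the PHY difference turned sign without 1 library for miR-193a-3p (range -0.088 to 0.22), miR-193b (-0.087 to 0.12) and miR-365-3p (-0.21 to 0.025). For miR-193a-5p, the described changes ranged from -0.44 to -0.29 in CON, 0.20 to 0.35 in PHY and 0.49 to 0.64 for PHY against CON on grain. The ratio of miR-193b to miR-193a-3p ranged from -0.42 to -0.29 and that of the miR-365 arms from -0.057 to 0.16 (log2, leaving out 1 library). Among the pairs, leaving out 1 library turned the sign for miR-193a-5p with miR-365-3p (r -0.077 to 0.16; -0.053 with relative log expression scaling), miR-193a-3p with miR-365-3p (-0.17 to 0.19; -0.024 with that scaling), miR-193a-3p with miR-193b (-0.0056 to 0.34) and the miR-365 arms (-0.061 to 0.39); the cause was not tested. Same-numbered libraries of an arm correlated between -0.02 and 0.39 in their deviations, not above 0.1 in every pair, so the numbers were not taken as cows. With the replicate block, the averaged log2 change was -0.28 for miR-365-3p, 0.20 for miR-193a-3p, -0.16 for miR-193b and -0.24 for miR-365-5p, and the ratio of miR-193b to miR-193a-3p was -0.35 (exact sign-flip adjusted p = 0.0625, which also missed the threshold). Depth limits miR-365-5p most.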
